A study of Mus musculus with 4 samples.

Results

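Tanycytes and ciliated ependymal cells line the third ventricle of the hypothalamus. Tanycytes line its floor and lower walls, send a long process into the tissue or to the capillaries of the median eminence, take up nutrients and hormones, and activate thyroid hormone for the neurons around them. Ciliated ependymal cells cover the upper walls and the ventricles of the rest of the brain, and their motile cilia move the cerebrospinal fluid. The genes described here are 10 of the 16339 genes to which the deposited transcripts were summed. They are 6 tanycyte genes, *Rax*, *Col23a1*, *Dio2*, *Crym*, *Vim* and *Nes*, and 4 genes of ciliated ependymal cells, *Foxj1*, *Ccdc153*, *Tmem212* and *Rarres2*. They were taken by name as markers of these cells.

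The libraries were made from the hypothalami of male C57BL/6 mice that received WD, a diet with 60% fat together with a 30% sucrose solution, for 12 weeks from 8 weeks of age. There were 2 libraries of WT littermates (WT WD) and 2 of mice lacking the taste receptor subunit TAS1R3 in every cell (*Tas1r3*-/- WD), a germline knockout backcrossed to C57BL/6. Mice on a normal diet are not analysed here, so WD is shared by all 4 libraries and the comparison asks what *Tas1r3* deficiency changed under it. The study states 3 mice per group for the sequencing, whereas 2 libraries per group are analysed here. The labels do not say that each library is a separate mouse, and p-values measure only the spread between these libraries. The library totals lay between 5728729 and 6180137 estimated counts. *Tas1r3* itself was at 6.06 and 4.44 CPM in WT WD and at 1.12 and 1.23 CPM in *Tas1r3*-/- WD, where CPM are counts scaled to a common library size with edgeR's TMM method. Its log2 fold change was -2.13 (edgeR adjusted p = 0.757), in the direction the labels give. With all libraries 0.757 was the smallest edgeR adjusted p over all genes tested. Many genes below share it, so it does not rank them.

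WT WD replicate 2 went against its tissue label, and the comparisons between the genotypes are therefore given with and without it. *Nkx2-1*, a transcription factor that defines the hypothalamus, had 0 counts in it and 28.7 to 41.5 CPM in the other 3 libraries. The summed level of 14 markers of hypothalamic neurons was 102 CPM in WT WD replicate 2 and 1354 to 1920 CPM in the others. Conversely, 8 thalamus markers summed to 2617 CPM in it against 546 to 734 CPM. The 11 choroid plexus markers summed to 794 CPM against 46.6 to 64.3 CPM, most of it from *Ttr*, the transthyretin of the choroid plexus, at 677 CPM. *Sspo*, which encodes the spondin of the subcommissural organ at the roof of the third ventricle, was at 105.5 CPM against 3.50 to 5.30 CPM. *Tas1r3*-/- WD replicate 1 stood apart in another list, with a summed level of 7 pituitary markers of 1425 CPM against 2.57 to 32.7 CPM elsewhere. The share of counts on 18S ribosomal RNA was 0.242% in WT WD replicate 2 and 1.29% to 2.34% in the other libraries. These other libraries were not alike in tissue markers. The thalamus marker *Tcf7l2* was at 10.8 CPM in WT WD replicate 1 and at 26.8 and 42.5 CPM in *Tas1r3*-/- WD. With WT WD replicate 2 left out, 7 of the 8 thalamus markers were higher in *Tas1r3*-/- WD (median log2 fold change 1.05). Of 13 hypothalamic neuron markers tested, 11 were lower (median -0.35). Tissue and genotype cannot be told apart in that comparison.

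**Figure D1:**
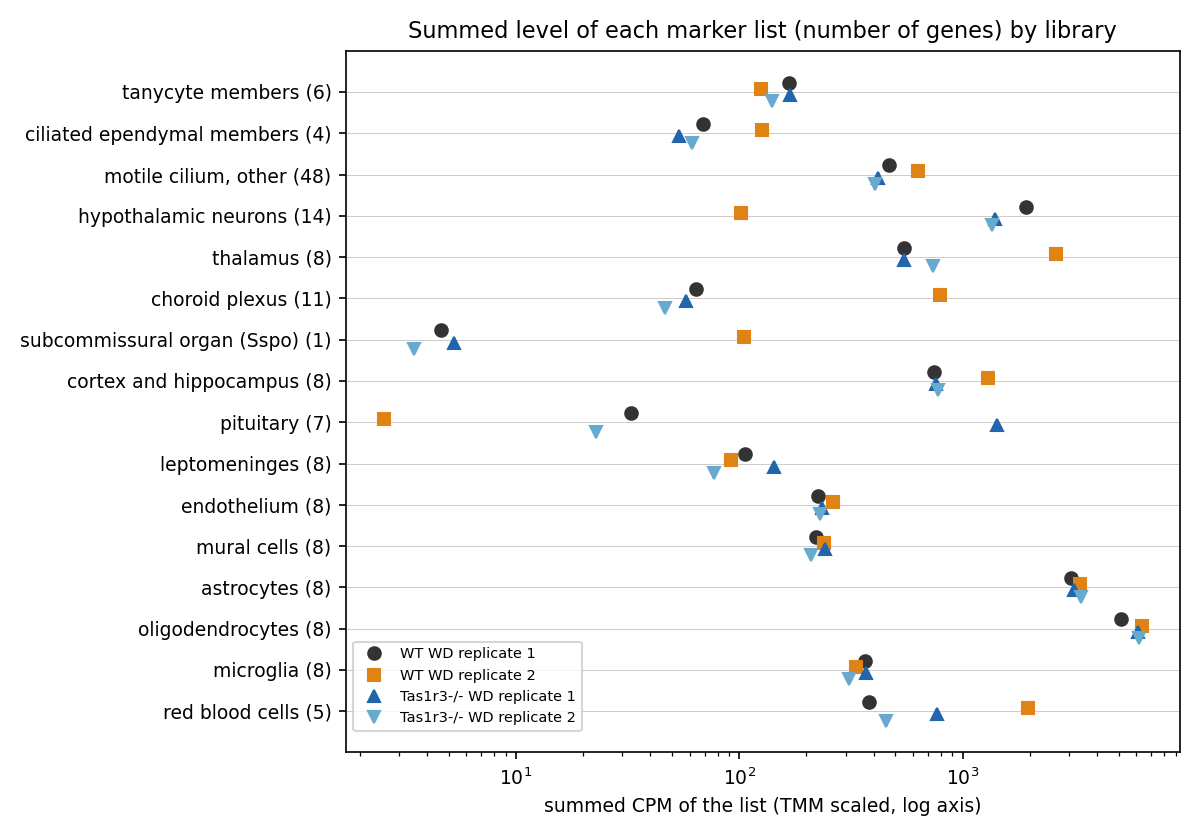
Summed level of each marker list (CPM, log axis) in the 4 libraries, with 1 symbol for each library and the number of genes in brackets. WT WD replicate 2 sits at 102 CPM for hypothalamic neurons and at 2617 CPM for thalamus, and *Tas1r3*-/- WD replicate 1 sits at 1425 CPM for pituitary.

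Promoters are shown for 3 members, chosen by motif. *Dio2* was chosen for a site that CREB binds, since the study is about CREB signaling. *Ccdc153* and *Tmem212* were chosen as ciliated genes that hold a motif of ciliated cells. Whether either motif has a part in the levels was not tested. RefSeq promoters (GRCm38.p6) were found for 6 of the 10 members, and those of *Rax*, *Crym*, *Foxj1* and *Rarres2* are not shown. The 250 bases before the RefSeq start of each gene were placed in GRCm39 by an exact match that occurred at 1 place. In *Dio2* (chr12:90705813-90706062, minus strand), capitals mark the cAMP response element TGACGTCA, the site that CREB binds. In *Ccdc153* (chr9:44151724-44151973, plus strand) and *Tmem212* (chr3:27950518-27950767, minus strand), capitals mark the half-site GTTNCC of the X-box, the motif bound by the RFX factors that work with FOXJ1 in ciliated cells.
*Dio2*: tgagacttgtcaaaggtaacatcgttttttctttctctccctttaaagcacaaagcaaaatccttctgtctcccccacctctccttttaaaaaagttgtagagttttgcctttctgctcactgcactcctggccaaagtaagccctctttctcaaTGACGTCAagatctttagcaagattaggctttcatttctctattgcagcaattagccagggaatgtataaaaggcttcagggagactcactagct
*Ccdc153*: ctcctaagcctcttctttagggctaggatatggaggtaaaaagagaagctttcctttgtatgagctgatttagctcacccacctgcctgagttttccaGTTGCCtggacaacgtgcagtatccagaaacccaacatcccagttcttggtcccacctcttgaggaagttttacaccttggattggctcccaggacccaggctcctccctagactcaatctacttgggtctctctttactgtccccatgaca
*Tmem212*: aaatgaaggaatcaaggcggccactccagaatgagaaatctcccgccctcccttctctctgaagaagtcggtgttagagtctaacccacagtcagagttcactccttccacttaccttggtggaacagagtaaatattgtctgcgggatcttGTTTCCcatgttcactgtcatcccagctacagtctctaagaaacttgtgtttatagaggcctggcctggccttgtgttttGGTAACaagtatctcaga

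Both strands were searched, over 300 bases of each promoter. The *Dio2* element starts 95 bases before the start, and TGACGTCA, which reads the same on both strands, occurs in 1.79% of 32851 promoters. The *Ccdc153* half-site starts 152 bases before the start, and the *Tmem212* half-sites lie 98 and 18 bases before it, the second on the other strand. These distances are from the RefSeq start. GENCODE places the start of *Tmem212* further upstream, at 27950563, so that the second half-site lies within the gene by those coordinates. GTTNCC, which includes every GTTGCC, occurs in 45.3% of all promoters. *Col23a1* and *Dio2* hold it too, 196 and 236 bases before the start. The promoter of *Col23a1* is not shown, and the half-site in *Dio2* is not marked in its sequence. The stricter GTTGCC, held by *Ccdc153* alone among the 6 members matched, occurs in 12.5% of all promoters. Among 48 other motile cilium genes, 41 had an entry, with 50 promoters, of which 80.0% held GTTNCC and 42.0% held GTTGCC. A match describes these letters only and was not tied to binding.

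Per length, *Vim* was the most abundant of the 10 genes, at 35.6 CPM per kb of its GENCODE canonical transcript as a mean over the 4 libraries. *Rarres2* followed at 29.1, *Foxj1* at 13.9 and *Ccdc153* at 12.0 CPM per kb. *Tmem212* was at 5.72, *Col23a1* at 4.81, *Crym* at 4.57, *Dio2* at 2.72, *Nes* at 2.66 and *Rax* at 1.26 CPM per kb. On this scale the libraries of neighbours in the order overlapped, except that every library of *Rarres2* was above every library of *Foxj1*, and every library of *Nes* above every library of *Rax*. All 10 genes had enough counts to be tested.

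The tanycyte genes fell into 2 patterns among the libraries. *Rax*, *Col23a1* and *Crym* were nearly absent from WT WD replicate 2, whereas *Dio2*, *Vim* and *Nes* were present in it at levels like those of the other libraries. WT WD replicate 2 was the lowest library for 4 of the 6, these 3 and *Nes*, where it was for 34.6% of all genes tested. None of the 6 passed edgeR's test between the genotypes with all libraries. In bulk tissue, fewer cells of a type and less RNA per cell cannot be told apart. Nor do these data show which cell types made the RNA of each gene.

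*Rax* (ENSMUSG00000024518, chromosome 18 of GRCm39, 66061348 to 66072858) encodes a homeobox factor that tanycytes need for their identity. It was at 3.97 and 0.536 CPM in WT WD replicates 1 and 2, and at 4.97 and 3.51 CPM in *Tas1r3*-/- WD replicates 1 and 2. The value of WT WD replicate 2 rests on 3.26 estimated counts, with an exact Poisson interval (95%) of 0.102 to 1.44 CPM that lies below the intervals of the other 3 libraries, and the genotypes overlapped. The log2 fold change in *Tas1r3*-/- WD relative to WT WD was 0.94 (standard error, SE, 0.87, edgeR adjusted p = 0.791). With that library left out it was 0.11 (SE 0.49, edgeR adjusted p = 0.946). These intervals and all limits on low counts cover counting error only.

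*Col23a1* (ENSMUSG00000063564, chromosome 11, 51180566 to 51474745), which encodes a transmembrane collagen, was at 50.6 and 2.64 CPM in WT WD and at 32.0 and 27.3 CPM in *Tas1r3*-/- WD. WT WD held both the highest and the lowest library. The mean of the other 3 libraries was 13.9 times the level in WT WD replicate 2, in which 16.1 estimated counts were found. With all libraries the log2 fold change was 0.16 (SE 1.12, edgeR adjusted p = 0.978). It turned to -0.77 (SE 0.16, edgeR adjusted p = 0.101) without WT WD replicate 2, so its direction rests on that library.

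*Crym* (ENSMUSG00000030905, chromosome 7, 119785530 to 119801514) encodes mu-crystallin, which binds the thyroid hormone T3 in the cytosol. Its levels were 8.40 and 0.329 CPM in WT WD, compared with 17.3 and 3.85 CPM in *Tas1r3*-/- WD. The 2 counts in WT WD replicate 2 lie below the 0.493 CPM that a count of 0 allows there (3 counts). *Tas1r3*-/- WD replicate 1 was the highest library, and it was also the one with the pituitary markers *Gh* at 760 CPM and *Prl* at 498 CPM. Whether these markers have a part in its *Crym* level was not tested. The log2 fold change was 1.29 (SE 1.27, edgeR adjusted p = 0.802), and 0.35 without WT WD replicate 2 (edgeR adjusted p = 0.850). Without *Tas1r3*-/- WD replicate 1 it was -0.17.

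**Figure D2:**
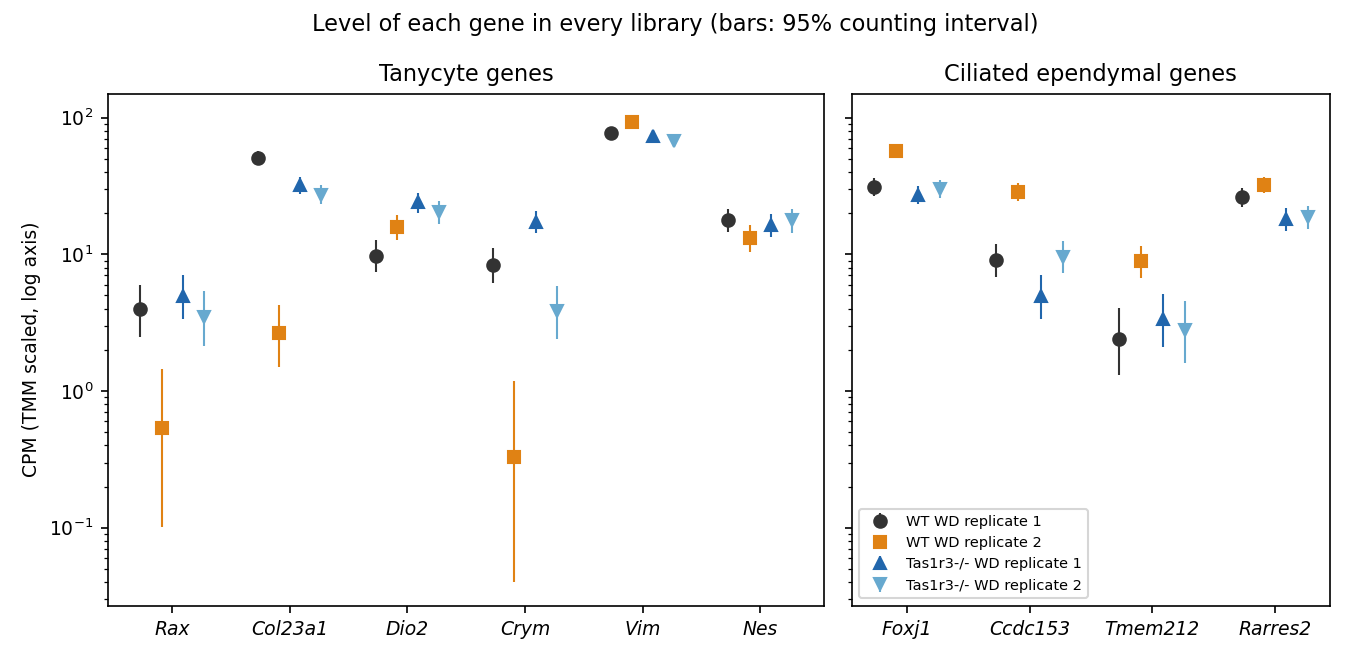
CPM of each gene (log axis) in the 4 libraries, with 1 symbol for each library and a bar for its 95% counting interval. *Rax*, *Col23a1* and *Crym* are lowest in WT WD replicate 2, at 0.536, 2.64 and 0.329 CPM, and the 4 ciliated ependymal genes are highest in it.

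*Dio2* (ENSMUSG00000007682, chromosome 12, 90691322 to 90705819) encodes the deiodinase that converts T4 to the active T3, and its transcription is known to respond to cAMP. It had 9.77 and 15.8 CPM in WT WD, compared with 23.9 and 20.3 CPM in *Tas1r3*-/- WD. Neither knockout library overlapped with WT WD, and both were the higher ones, a pattern found in 20.6% of the 14344 genes tested. The log2 fold change was 0.79 (SE 0.29, edgeR adjusted p = 0.757). In the fit lacking WT WD replicate 2 it was 1.18 (SE 0.23, edgeR adjusted p = 0.0931). It is the tanycyte gene with the largest difference between the genotypes in the 3 libraries with hypothalamic markers, but it did not pass the test. Tissue markers also differed between the genotypes in these libraries.

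*Vim* (ENSMUSG00000026728, chromosome 2, 13578738 to 13587639) and *Nes* (ENSMUSG00000004891, chromosome 3, 87878385 to 87887758) encode the intermediate filament proteins vimentin and nestin, which tanycytes share with other glial and vascular cells. *Vim* was at 77.2 and 93.3 CPM in WT WD and at 73.9 and 67.9 CPM in *Tas1r3*-/- WD. The *Tas1r3*-/- WD libraries lay below the WT WD libraries, as for 18.9% of all genes tested. Its log2 fold change of -0.27 (SE 0.15, edgeR adjusted p = 0.757) was -0.12 without WT WD replicate 2. *Nes* was at 17.9 and 13.2 CPM in WT WD, compared with 16.4 and 17.7 CPM in *Tas1r3*-/- WD. The genotypes overlapped, with a log2 fold change of 0.14 (SE 0.23, edgeR adjusted p = 0.885), which was -0.07 without WT WD replicate 2. Markers of cells that also make these filaments moved little among the libraries, with a summed level of 226 to 262 CPM for 8 endothelial markers and 210 to 243 CPM for 8 mural cell markers. Their part in *Vim* and *Nes* was not tested.

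The 4 ciliated ependymal genes were each highest in WT WD replicate 2, and their summed level was 127 CPM there against 53.6 to 68.7 CPM in the other libraries. None passed the test between the genotypes. Without WT WD replicate 2, the remaining WT WD library lay within the range of the *Tas1r3*-/- WD libraries for *Ccdc153* and outside it for *Foxj1*, *Tmem212* and *Rarres2*. The summed level of the 6 tanycyte genes was 126 CPM in WT WD replicate 2 and 141 to 168 CPM elsewhere, of which *Vim* made the largest part.

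*Foxj1* (ENSMUSG00000034227, chromosome 11, 116221530 to 116226225), the transcription factor that switches on the genes of motile cilia, was at 31.0 and 56.9 CPM in WT WD, compared with 27.1 and 30.3 CPM in *Tas1r3*-/- WD. The other 3 libraries lay close together, and WT WD replicate 2 had 1.93 times their mean. The log2 fold change of -0.62 (SE 0.31, edgeR adjusted p = 0.757) became -0.11 (SE 0.16, edgeR adjusted p = 0.804) without that library. The *Tas1r3*-/- WD libraries were below both WT WD libraries, as for 18.9% of all genes tested.

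*Ccdc153* (ENSMUSG00000070306, chromosome 9, 44151973 to 44158614), which encodes a coiled-coil protein of motile cilia, had 9.09 and 28.7 CPM in WT WD, compared with 4.97 and 9.63 CPM in *Tas1r3*-/- WD. WT WD replicate 2 was at 3.63 times the mean of the others, and the genotypes overlapped. Its log2 fold change was -1.37 (SE 0.64, edgeR adjusted p = 0.757) with all libraries and -0.32 (SE 0.41) without WT WD replicate 2. *Tmem212* (ENSMUSG00000043164, chromosome 3, 27915549 to 27950563), which encodes a membrane protein, had 2.40 and 8.88 CPM in WT WD, compared with 3.37 and 2.80 CPM in *Tas1r3*-/- WD. Here too WT WD replicate 2 alone was high, at 3.11 times the mean of the others. The log2 fold change was -0.87 (SE 0.68, edgeR adjusted p = 0.774), and it turned to 0.36 (SE 0.58) without WT WD replicate 2.

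*Rarres2* (ENSMUSG00000009281, chromosome 6, 48546630 to 48549762) encodes chemerin, a secreted signal of ependymal and other cells. It was at 26.2 and 32.3 CPM in WT WD and at 18.2 and 18.8 CPM in *Tas1r3*-/- WD. The knockout libraries were the lower ones without overlap, as for 18.9% of all genes tested. Of the 4 genes it depended least on WT WD replicate 2. The log2 fold change was -0.67 (SE 0.18, edgeR adjusted p = 0.757), and -0.51 (SE 0.18, edgeR adjusted p = 0.274) without that library. The leptomeninges can also make chemerin, and their 8 markers summed to 106 and 92.0 CPM in WT WD, compared with 143 and 76.9 CPM in *Tas1r3*-/- WD. Their part in the level of *Rarres2* was not tested.

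With all 4 libraries, 0 of the 10 genes and 0.0% of the 14344 genes tested were called, which took 1.5-fold or more and an adjusted p below 0.05 in edgeR's quasi-likelihood test. At an unadjusted p under 0.05 there were 2 of the 10 genes, *Dio2* and *Rarres2*, and 5.38% of all genes. DESeq2 called none of the 10 and 0.0558% of all genes. Without WT WD replicate 2, where the remaining WT WD library is assumed to vary like the *Tas1r3*-/- WD libraries, edgeR called 0 of the 10 and 0.217% of all genes (0.183% higher and 0.034% lower in *Tas1r3*-/- WD). When WT WD replicate 1 was left out instead, so that WT WD replicate 2 stood alone for WT WD, 7 of the 10 passed against 14.3% of all genes. *Rax*, *Col23a1* and *Crym* were then higher and *Foxj1*, *Ccdc153*, *Tmem212* and *Rarres2* lower in *Tas1r3*-/- WD, as were 7.55% and 6.75% of all genes in these directions. This last comparison is between a library low in hypothalamic markers and the knockout libraries, and genotype and tissue cannot be told apart in it. Tissue markers also differed between the genotypes without WT WD replicate 2, as given above.

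**Figure D3:**
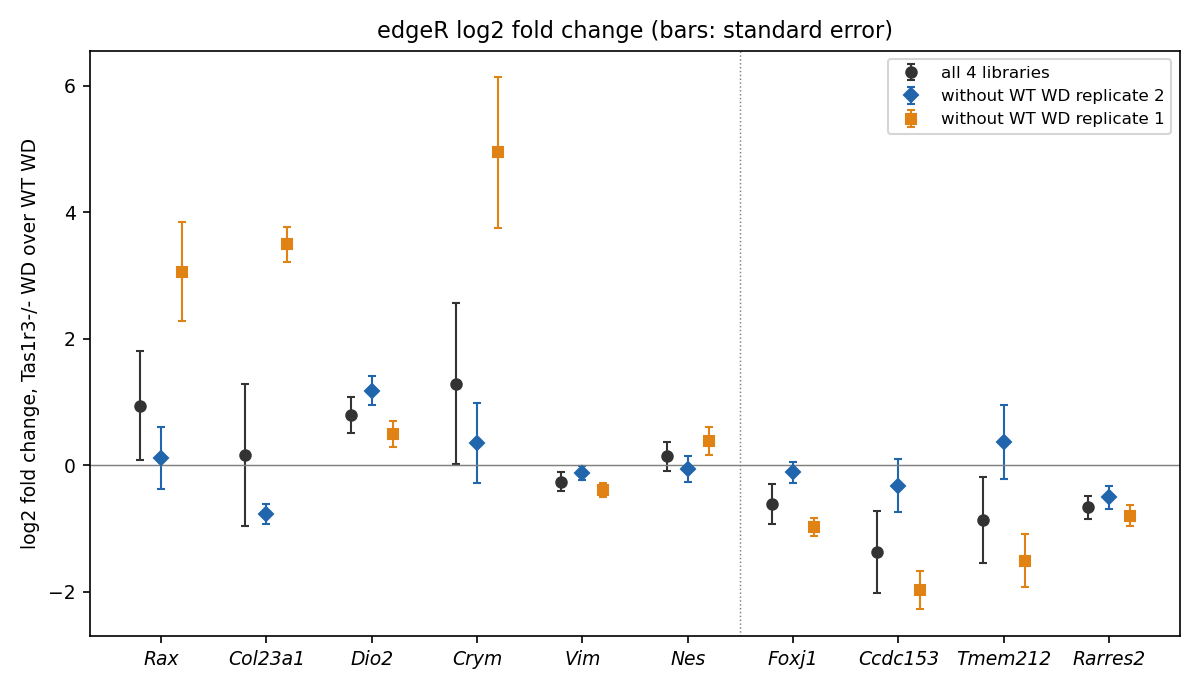
edgeR log2 fold change (*Tas1r3*-/- WD over WT WD) of each gene with its standard error, from all 4 libraries and with either WT WD library left out. Without WT WD replicate 2 the values lie between -0.77 and 1.18, and without WT WD replicate 1 they reach 4.94 for *Crym*.

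A list of 20 other tanycyte genes, all tested, also split among the libraries. They too were taken by name, and the part of other cell types in their levels was not tested. In WT WD replicate 2, 5 of the 20 were at least 2-fold below every other library, namely *Gpr50*, *Six6*, *Frzb*, *Trhde* and *Pdzph1*, where 3.96% of all genes were. Likewise *Lhx2* and *Slc17a8* were at least 2-fold above every other library, where 2.87% of all genes were. These 7 are named after their values were seen. *Gpr50*, a receptor related to those for melatonin, was at 32.5 and 0.494 CPM in WT WD and at 23.9 and 24.5 CPM in *Tas1r3*-/- WD. *Trhde*, the enzyme that degrades TRH, was at 17.3 and 6.42 CPM in WT WD and at 19.0 and 17.7 CPM in *Tas1r3*-/- WD. The most abundant of the list were not low in WT WD replicate 2. *Igfbp5*, a binding protein of insulin-like growth factors, was at 248 and 415 CPM in WT WD, compared with 295 and 248 CPM in *Tas1r3*-/- WD. *Ptn*, which encodes the growth factor pleiotrophin, was at 124 and 143 CPM in WT WD against 115 and 109 CPM, and the collagen gene *Col25a1* at 96.5 and 135 CPM against 109 and 115 CPM.

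Between the genotypes, 0 of these 20 genes passed the test. Their median log2 fold change was -0.09, beside -0.01 over all genes tested, with 9 higher and 11 lower in *Tas1r3*-/- WD. The median without WT WD replicate 2 was -0.03, and 10 were higher and 10 lower. Leaving it out turned the log2 fold change of *Gpr50*, from 0.55 to -0.43, of *Igfbp5*, from -0.29 to 0.13, and of *Col25a1*, from -0.05 to 0.22, and that of *Trhde* moved from 0.63 to 0.09.

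A list of 48 other genes of the motile cilium, of which 47 were tested, followed the ciliated members. WT WD replicate 2 was the highest library for 38 of the 48 genes (79.2%), against 33.8% of all genes tested, and it was the lowest for 3. It was at least 2-fold above every other library for 8 of them and at least 2-fold below for 0. The summed level of the list was 632 CPM in WT WD replicate 2 and 404 to 470 CPM in the others. Of 9 regulators of ciliated cell fate, 8 were in the table and 6 were tested. The sum of the 8 did not stand out in WT WD replicate 2, with 47.3 CPM against 43.0 to 51.7 CPM, but the genes differed. That library was the lowest for *Rfx3* and *Rfx2*, the 2 with the highest mean CPM. It was the highest for 3, *Trp73*, *Ccdc78* and *Myb*, at 2.57, 3.11 and 1.6 times the mean of the others. *Ccdc78* and *Myb* are named after their values were seen.

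**Figure D4:**
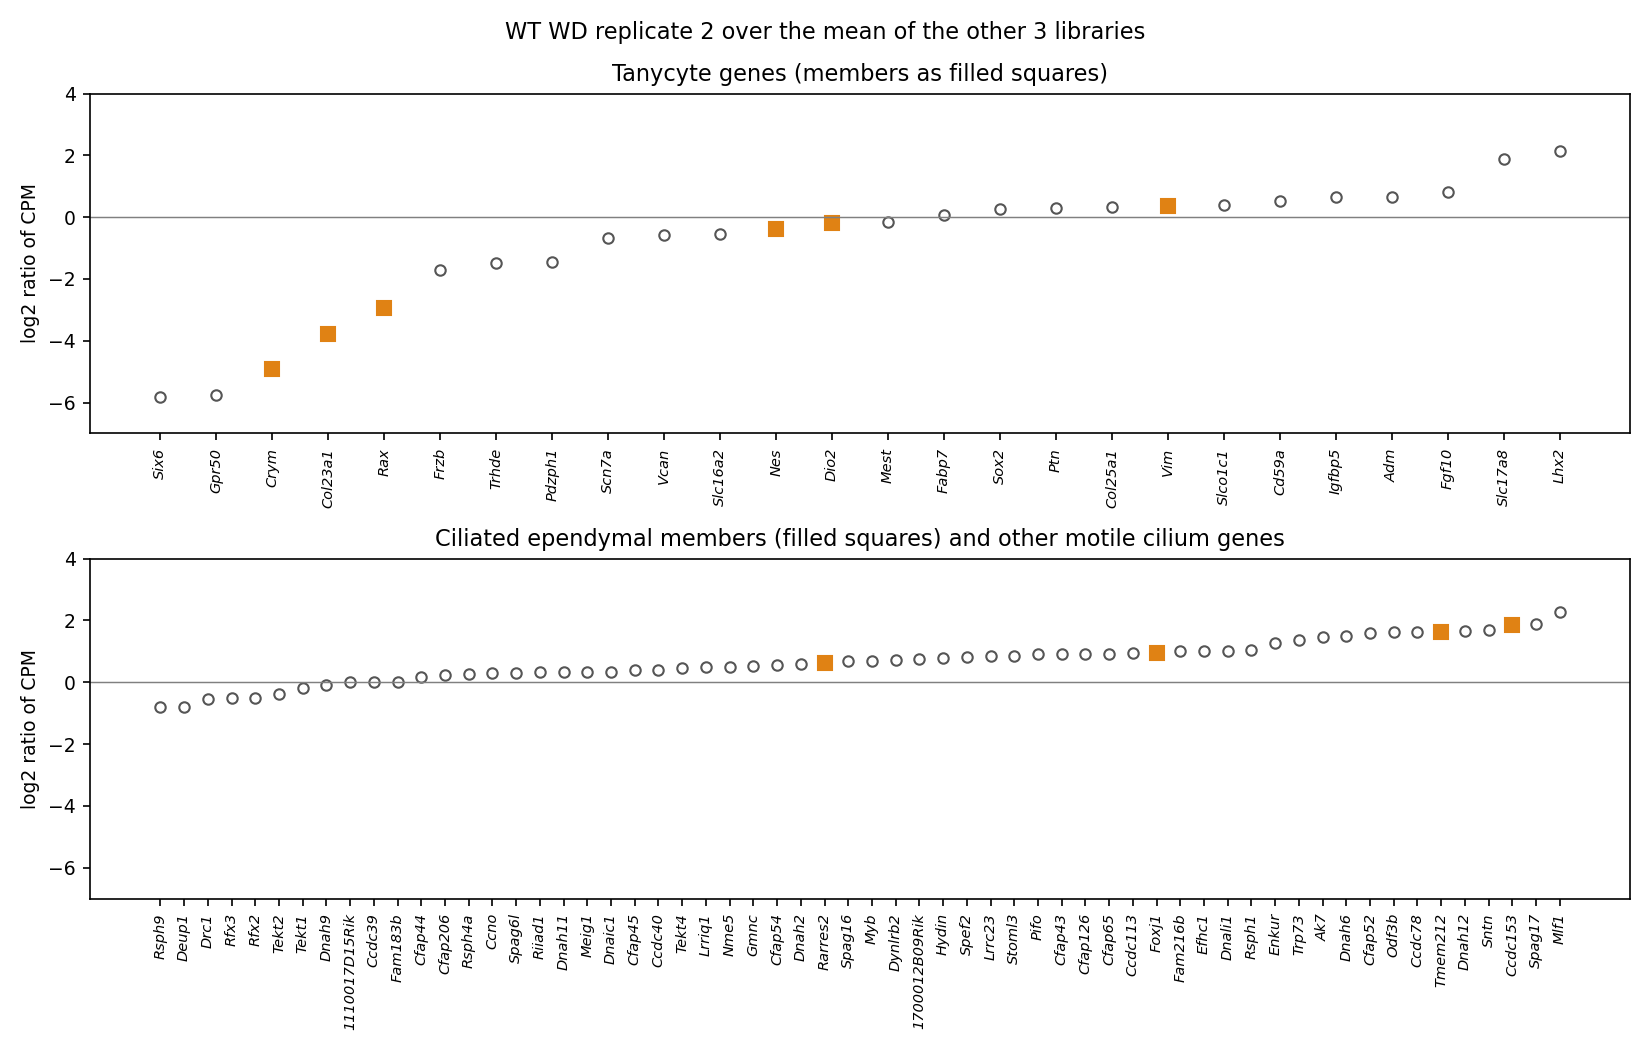
log2 ratio of CPM in WT WD replicate 2 to the mean of the other 3 libraries, for the tanycyte genes above and the ciliated ependymal and motile cilium genes below, sorted by value, with members as filled squares. Tanycyte genes spread on both sides of 0 while 38 of the 48 motile cilium genes that are not members are highest in WT WD replicate 2.

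Between the genotypes, 0 of the 47 motile cilium genes tested were called, whereas 43 had a lower mean and 4 a higher mean in *Tas1r3*-/- WD. Over the list the log2 fold change had a median of -0.56, beside -0.01 over all genes. Both *Tas1r3*-/- WD libraries lay below both WT WD libraries for 25 of the 47 genes, where 18.9% of all genes did, and above them for 2. Without WT WD replicate 2, 34 had a lower and 13 a higher mean, with a median of -0.22, beside 7122 lower of 14343 and a median of 0.00199 over all genes. These counts rest on 1 WT WD library, and the genes are not independent of each other. Tissue markers also differed between the genotypes in this fit.

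Among the most abundant of these genes, *Ccdc40*, needed to assemble the inner dynein arms, was as high in WT WD replicate 1 as in replicate 2. It was at 26.8 and 26.1 CPM in WT WD and at 15.7 and 16.4 CPM in *Tas1r3*-/- WD, with a log2 fold change of -0.72 (SE 0.16, edgeR adjusted p = 0.757), and -0.74 without WT WD replicate 2 (edgeR adjusted p = 0.172). Its partner in that assembly, *Ccdc39*, was level, at 21.7 and 21.8 CPM in WT WD, compared with 21.1 and 22.1 CPM in *Tas1r3*-/- WD. *Rsph1*, a radial spoke protein, was at 21.8 and 37.7 CPM in WT WD against 15.9 and 16.6 CPM. *Cfap65* was at 26.8 and 46.1 CPM in WT WD against 23.3 and 22.7 CPM. For *Rsph9* and *Drc1* WT WD replicate 2 was instead the lowest library, with 23.7 and 17.6 CPM, and the other libraries had 38.1 to 43.9 CPM and 24.4 to 28.0 CPM. Of the regulators, *Rfx3*, an RFX factor of ciliated cells, had 22.3 and 17.6 CPM in WT WD, compared with 26.6 and 26.8 CPM in *Tas1r3*-/- WD. Its relative *Rfx2* had 9.61 and 6.91 CPM against 10.8 and 8.94 CPM. *Trp73*, which encodes p73, a factor upstream of *Foxj1*, was at 1.20 and 8.88 CPM against 4.33 and 4.83 CPM. Among these, leaving out WT WD replicate 2 turned the log2 fold change of *Rsph9* from 0.30 to -0.06, of *Drc1* from 0.12 to -0.18 and of *Trp73* from -0.13 to 1.92 (edgeR adjusted p = 0.241). Over the 6 regulators tested, 2 were higher and 4 lower with all libraries (median -0.20), and 5 were higher and 1 lower without it (median 0.24), and none was called in either fit.

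Genes that work with the members were called in neither direction, with or without WT WD replicate 2. Of 12 genes of thyroid hormone transport and action, the pathway of *Dio2* and *Crym*, 11 were tested, with 5 higher and 6 lower and a median log2 fold change of -0.09. Without WT WD replicate 2 there were again 5 and 6, with a median of -0.06. Its 3 most abundant genes were *Thra*, the receptor alpha, at 949 and 704 CPM in WT WD, compared with 825 and 853 CPM in *Tas1r3*-/- WD, the corepressor gene *Ncor1* at 160 and 194 CPM against 188 and 186 CPM, and *Klf9* at 83.3 and 204 CPM against 148 and 123 CPM. *Klf9*, a transcription factor induced by T3 and by glucocorticoids, had both its lowest and its highest library in WT WD, and its log2 fold change of -0.09 turned to 0.70 (edgeR adjusted p = 0.0931) without WT WD replicate 2. That of *Thra* turned from 0.02 to -0.18.

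Of 10 intermediate filament genes beside *Vim* and *Nes*, 6 were higher and 4 lower, with a median of 0.08, and 7 were higher and 3 lower without WT WD replicate 2, with a median of 0.14. The neurofilament genes *Nefl* and *Ina* were highest in WT WD replicate 2, at 564 and 466 CPM against 364 to 428 CPM and 325 to 343 CPM in the other libraries. *Gfap*, the filament of astrocytes, was at 340 and 185 CPM in WT WD, compared with 364 and 253 CPM in *Tas1r3*-/- WD. Without that library the log2 fold changes of these 3 genes turned, from -0.18 to 0.17 for *Nefl*, from -0.26 to 0.00968 for *Ina* and from 0.23 to -0.14 for *Gfap*. Of 16 genes of chemerin and retinoid signaling, set beside *Rarres2*, 13 were tested, with 7 higher and 6 lower and a median of 0.00574. Without WT WD replicate 2, 14 were tested, with 8 higher and 6 lower and a median of 0.14. *Aldh1a1*, a retinoic acid synthase, was at 36.7 and 60.5 CPM in WT WD, compared with 39.2 and 50.3 CPM in *Tas1r3*-/- WD, and its log2 fold change turned from -0.12 to 0.28 without that library. The retinoic acid receptor genes *Rarg* and *Rara* had 9.65 to 19.7 CPM and 10.4 to 11.7 CPM over the 4 libraries. Both WT WD libraries of *Rarg* were above both knockout libraries, as for 18.9% of all genes tested. Its log2 fold change was -0.64 with all libraries and -0.77 without WT WD replicate 2 (edgeR adjusted p = 0.251), and that of *Rara* was 0.00574 and -0.08.

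*Ccdc153* and *Rarres2* are counted over more than 1 RefSeq transcript, and the other 8 genes over 1. Of the *Ccdc153* counts, NM_001360344 took 46.3% and 61.7% in WT WD replicates 1 and 2 but 4.56% and 69.2% in *Tas1r3*-/- WD replicates 1 and 2. The split between transcripts thus differed more between the *Tas1r3*-/- WD libraries than between the genotypes. For *Rarres2*, NM_001347168 held the largest share in every library, with 53.4% and 77.6% in WT WD, compared with 75.9% and 65.3% in *Tas1r3*-/- WD. These are estimates from reads that the transcripts share.

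The genes closest to the mean pattern of each group over the 4 libraries were neither tanycyte nor cilium markers by the lists used. Likeness was the Euclidean distance of log2 CPM, centred for each gene, from the mean of the group, over 14333 genes with at least 1 CPM. For the tanycyte members they were *Myo5b*, *Crhr1* and *Gpr149*, at distances of 0.0803, 0.124 and 0.160. These members did not share a pattern, so their mean is not close to the profile of a single member. *Crhr1*, a receptor for CRH, was at 11.1 and 3.45 CPM in WT WD, compared with 12.8 and 10.2 CPM in *Tas1r3*-/- WD. For the ciliated members they were *Hrh3*, *Shisa6* and *Zfpm1*, at 0.0387, 0.0628 and 0.0956. *Hrh3*, the histamine H3 receptor of neurons, was at 85.2 and 182 CPM in WT WD, compared with 68.1 and 79.1 CPM in *Tas1r3*-/- WD. With 4 libraries, of which WT WD replicate 2 set most of the pattern, this is a description.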

How the data were processed

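The deposited tables hold estimated counts (expected counts) of RefSeq transcripts, which the authors made from Ion Torrent reads with STAR on mm39 in Partek (per the submitters' processing notes), without normalization. Of the values 13.0% are whole, and the 4 tables of single samples equal the table of all samples. A RefSeq table (GRCm38.p6, names only) named 30891 of 30930 transcripts, with a copy suffix removed. The other 39, with 0.347% to 2.49% of counts per library, were left out. Counts were summed to gene symbols and rounded for the count models. Coordinates and transcript lengths are from GENCODE M39 on GRCm39.

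The main test was edgeR 4.0.16 (quasi-likelihood, TMM, filterByExpr) in R 4.3.3 over 14344 genes, adjusted by Benjamini-Hochberg. Calls took 1.5-fold or more at an adjusted p below 0.05. The SE given for edgeR was derived as the absolute log2 fold change over the square root of the quasi-likelihood F statistic. The methods of the study name DESeq2, run here (1.42.0) as an alternative beside limma 3.58.1 and other settings. The tests were also run on simulated data, in which no library deviated as WT WD replicate 2 does here. That check therefore does not cover such a library.

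Depth was 5728729 to 6180137 counts of named genes. A count of 0 allows 3 counts, or 0.481 to 0.525 CPM, and intervals (95%, exact Poisson) cover counting error only. Genes were named as members, as the 3 most abundant of a list (6 for motile cilium), as called or as the 3 nearest in pattern, with exceptions stated. Of the marker lists not described in the text, 8 astrocyte markers summed to 3061 to 3398 CPM, 8 of oligodendrocytes to 5111 to 6345 CPM, 8 of microglia to 311 to 369 CPM, 8 of cortex and hippocampus to 1298 CPM in WT WD replicate 2 and 747 to 778 CPM elsewhere, and 5 of red blood cells to 1955 CPM and 380 to 768 CPM. The members and lists were chosen with earlier results of these data known. Figures were drawn with matplotlib 3.10.9.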

Additional observations from a re-analysis of the deposited data

How the results depend on the processing

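Between the genotypes, the count of called genes was 0 for the tanycyte members, the ciliated ependymal members, the other tanycyte genes and the other motile cilium genes with their regulators (56 genes) in all alternatives that kept the 4 libraries (RLE or total-count scaling, either filter on low counts, DESeq2, limma-trend, the replicate block, no fold change threshold), and over all genes it was 0 except with DESeq2, at 8. Leaving out each library in turn gave 0 to 3 tanycyte members, 0 to 4 ciliated members, 0 to 9 other tanycyte genes, 0 to 17 other motile cilium genes with regulators (16 of the 17 without the regulators) and 0 to 2123 genes in all. The highest count came each time without WT WD replicate 1, and all genes also had 32 calls without WT WD replicate 2. Among the log2 fold changes of the 10 members, all alternatives with 4 libraries kept the direction, although a minimum of 10 counts in every library dropped *Rax* and *Crym*, and *Col23a1* moved from 0.16 to 1.28 with limma-trend. With a library left out, that of *Col23a1* ranged from -0.77 to 3.49, of *Crym* from -0.17 to 4.94, of *Nes* from -0.0683 to 0.38 and of *Tmem212* from -1.51 to 0.36. The log2 ratio of the summed level (*Tas1r3*-/- WD over WT WD) of the ciliated members was -0.76 and ranged from -1.13 to -0.25, and that of the tanycyte members was 0.07 and ranged from -0.12 to 0.30. The replicate numbers are not stated to pair the libraries, and deviations of same-numbered libraries correlated at 0.0821. With the replicate block 0 genes were called, and 667 against 772 had an unadjusted edgeR p under 0.05. Testing transcripts singly, chosen after seeing the data, kept the direction of each tested transcript of *Ccdc153* and *Rarres2*. The precision is limited by 2 libraries a group, 1 of them low in hypothalamic markers, and *Tas1r3* itself, at -2.13, had an edgeR adjusted p of 0.757.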
